A study of Mus musculus with 15 samples.

Results

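The 10 genes described here mark tubule injury and repair in the kidney: Havcr1, Lcn2, Krt8, Krt18, Krt19, Sox9, Vcam1, Cd44, Spp1 and Clu. They were chosen by name, with earlier results of these data known, and are 10 of 46517 genes in the deposited count tables. All 10 passed the filter on low counts that left 18132 genes for testing. The RNA samples were 3 controls of genotype Dnmt1 f/f and 3 knockouts (KO) of genotype Six2Cre Dnmt1 f/f, all of strain C57BL/6 at postnatal day 0 (P0). Reduced representation bisulfite sequencing (RRBS), which reads cytosine methylation in CpG-rich fragments, covered 3 other samples of each of these groups and 3 wild type adults of 6 weeks. Dnmt1 is the enzyme that copies CpG methylation to new DNA strands, and both P0 groups carried its floxed alleles. Six2Cre is active in nephron progenitors, so that the deletion passes to podocytes and nephron tubules but not to the ureteric tree, stroma, vessels or leukocytes of the same organ. The labels name cells positive for Six2 as the source and whole kidneys as the source of the DNA. Nothing in them says that samples came from separate animals, so p-values measure the spread between these samples.

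When a kidney tubule is damaged, surviving epithelial cells lose transporters, spread and divide. They switch on Havcr1 (kidney injury molecule 1, a receptor for dying cells), Lcn2 (a secreted iron-siderophore carrier) and simple-epithelium keratins, and Sox9, a transcription factor of repairing and developing epithelium. Cells that fail to complete repair are known for Vcam1, a surface ligand for leukocyte integrins. Cd44 is a hyaluronan receptor, Spp1 (osteopontin) a secreted integrin ligand and Clu (clusterin) a secreted chaperone. Several of these genes also belong to the normal newborn kidney: keratins 8, 18 and 19 to the ureteric tree and the urothelium, Sox9 to growing ureteric tips and early nephrons, and Vcam1 and Cd44 to stromal and blood cells.

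Upstream sequences are shown for 4 of the genes because the methylation data below fall at or near their starts or, for Cd44, because it is the only one of the genes that rose with an entry in the RefSeq promoter table (GRCm38.p6). That table held 6 of the 10 genes. Each run is the 250 bases before the annotated start, read 5′ to 3′ on the strand of the gene, with CpG dinucleotides in capitals. Spp1 lies on chr5:104434861-104435110 (plus strand), Lcn2 on chr2:32387740-32387989 (minus), Krt18 on chr15:102027966-102028215 (plus) and Cd44 on chr2:102901666-102901915 (minus).
Spp1: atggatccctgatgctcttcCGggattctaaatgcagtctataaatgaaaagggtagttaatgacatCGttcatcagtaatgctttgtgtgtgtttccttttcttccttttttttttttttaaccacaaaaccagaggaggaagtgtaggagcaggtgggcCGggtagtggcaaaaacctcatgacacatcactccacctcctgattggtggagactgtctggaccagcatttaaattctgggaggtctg
Lcn2: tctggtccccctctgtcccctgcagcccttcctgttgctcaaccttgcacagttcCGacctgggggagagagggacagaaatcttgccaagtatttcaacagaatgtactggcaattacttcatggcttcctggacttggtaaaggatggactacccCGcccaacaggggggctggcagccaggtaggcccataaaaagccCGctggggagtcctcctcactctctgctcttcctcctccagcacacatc
Krt18: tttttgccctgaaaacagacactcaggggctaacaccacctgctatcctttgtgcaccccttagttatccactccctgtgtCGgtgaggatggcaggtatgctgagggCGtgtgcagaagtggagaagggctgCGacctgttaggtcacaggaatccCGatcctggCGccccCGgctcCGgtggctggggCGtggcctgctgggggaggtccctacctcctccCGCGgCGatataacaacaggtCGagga
Cd44: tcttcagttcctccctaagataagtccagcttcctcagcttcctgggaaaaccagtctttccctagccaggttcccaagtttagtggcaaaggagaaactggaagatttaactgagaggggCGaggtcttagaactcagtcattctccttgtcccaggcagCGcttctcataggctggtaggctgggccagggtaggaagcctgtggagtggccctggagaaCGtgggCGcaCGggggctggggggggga
Krt18 held 12 CpGs in this stretch, Cd44 held 5, and Spp1 and Lcn2 held 3 each, as did Krt8 and Havcr1. The median over 27025 upstream stretches of the same length was 6, with quartiles of 2 and 16. A loose NF-kB motif (GGG, any 5 bases, then CC, on either strand, where matches can overlap) was found in Lcn2, Krt8, Krt18 and Cd44 and in 45.4% of all such stretches. AP-1 (TGANTCA, 6.85% of all stretches) and STAT (TTCNNNGAA, 7.14%) had no match in any of the 6 genes. These are letter matches only.

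The libraries held 26773937 to 34102567 gene counts. Reads without a unique alignment were 13.97% to 24.6% of all reads in controls and 22.5% to 28.0% in KO, and mitochondrial genes took 4.25% to 13.1% and 7.81% to 11.8% of gene counts. Dnmt1 itself was lower in every KO sample, at 93.7 to 111 CPM (gene counts per 1000000, after TMM scaling) against 156 to 188 in controls (log2 fold change -0.74, SE 0.12, edgeR adjusted p = 0.00577). At an adjusted p under 0.05, 6.36% of tested genes were called higher in KO and 8.23% lower. Control 3 stood apart in tubule maturation, with summed CPM of 14 proximal tubule genes at 6201 against 2623 and 2855 in the other controls. Endothelial, stromal and ureteric markers were present in all 6 libraries, as in whole kidney. In such tissue fewer cells of a type and less RNA per cell cannot be told apart.

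The question was whether newborn kidneys that lost Dnmt1 in the nephron lineage carried more RNA of injury and repair markers. Krt19, Vcam1, Cd44 and Sox9 rose, by 3.03-fold, 2.97-fold, 2.30-fold and 1.95-fold. For each of them every KO sample lay above every control, as for 16.5% of all genes tested. That separation is read from the same values as the test. The other 6 genes did not pass the test: Krt18 and Krt8 had higher means in KO, Lcn2 and Clu had nearly equal means, and Spp1 and Havcr1 had lower means. The 4 of 10 called higher stand against 6.36% of all genes tested, and 0 of 10 were called lower. As the list was chosen with earlier results of these data known, this share is a description only. Without KO 1 the number called higher was 2 (Krt19 and Vcam1), and at an adjusted p under 0.01 it was 1. The median log2 fold change of the 10 genes was 0.68, against 0.00 (-0.000738) over all genes tested, which describes the list and was not tested. Tests are edgeR's quasi-likelihood test, adjusted over all 18132 genes.

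**Figure D1:**
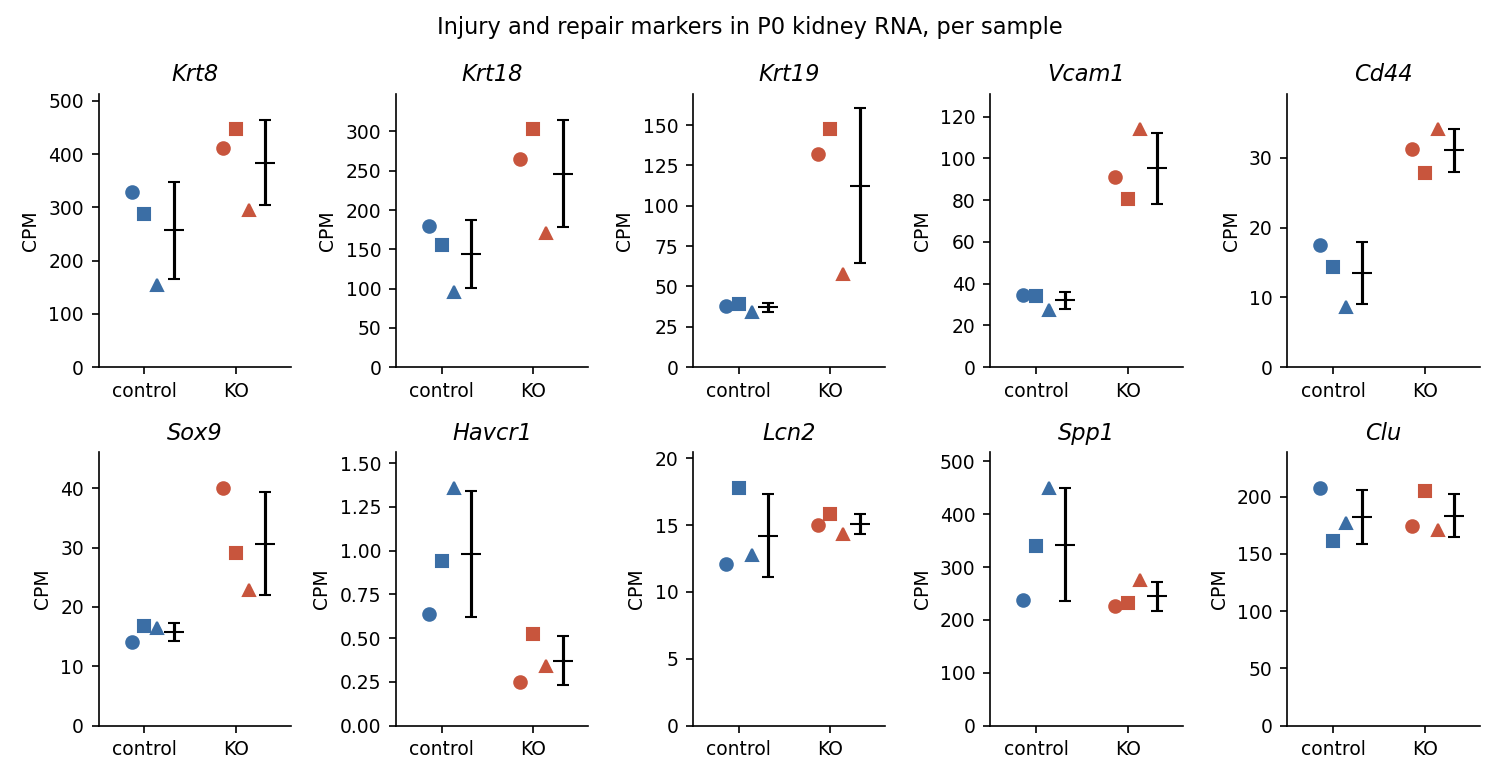
CPM (linear axes from 0) of the 10 genes in each control (blue) and KO (red) sample; circles, squares and triangles are replicates 1, 2 and 3, and the black bar is the mean with its SD (n = 3). Krt19, Vcam1, Cd44 and Sox9 have every KO sample above every control, as do 16.5% of all genes tested. The groups overlap for Krt8, Krt18, Lcn2, Spp1 and Clu.

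Keratins 8, 18 and 19 form the intermediate filaments of simple epithelia, Krt8 as the type II partner of the type I keratins Krt18 and Krt19. Krt19 (ENSMUSG00000020911.13, GRCm38 chromosome 11, 100140810 to 100145926) stood at 38.1, 39.3 and 34.1 CPM in controls 1 to 3 and at 132, 147 and 57.8 CPM in KO 1 to 3. The controls lay close together, and KO 3 was the lowest KO sample by a wide margin but still above them. The means were 37.2 ± 2.71 and 113 ± 48.0 CPM (SD, n = 3 each), a log2 fold change of 1.598 (SE 0.31, edgeR adjusted p = 0.0108).

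Krt18 (chromosome 15, 102028216 to 102032026) stood at 179.9, 156 and 95.4 CPM in controls and at 265, 303 and 170.4 CPM in KO. Control 3 was low and KO 3 fell between the first and second controls, so that the groups overlapped. Its log2 fold change of 0.78 (SE 0.27) did not pass edgeR's test (adjusted p = 0.102), but passed with DESeq2 (adjusted p = 0.0301). Krt8, on the same chromosome at 101996711 to 102004342, had 329, 287 and 155 CPM in controls and 411, 447 and 295 CPM in KO, with the same samples low in each group. At 0.58 (SE 0.28), its log2 fold change did not pass either (edgeR adjusted p = 0.226).

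The 3 keratins kept different proportions. Krt8 to Krt18 was a ratio of 1.62 to 1.85 in controls and 1.47 to 1.73 in KO. Krt19 to Krt18 was 0.212, 0.252 and 0.358 in controls and 0.4996, 0.487 and 0.339 in KO. KO 3 thus lay within the control range of that ratio, and KO 1 and KO 2 above it.

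Of 9 other epithelial keratins tested, 4 rose and none fell, with 1 past the test without control 1 and 2 without control 2. Krt20, a keratin of injured tubules and of superficial urothelium, stood at 2.39 to 3.17 CPM in controls and at 17.7, 8.49 and 5.78 CPM in KO (log2 fold change 1.92, SE 0.40, edgeR adjusted p = 0.0161). Krt5, a basal urothelial keratin, rose by 2.94 (SE 0.74, adjusted p = 0.0329), with KO 1 at 39.0 CPM and KO 2 and KO 3 at 5.77 and 6.27 CPM. Krt4 and Krt17 also passed, with log2 fold changes of 2.38 and 2.47, but at low levels. Krt4 stood at 0.421 to 0.652 CPM in controls and at 2.99, 4.49 and 0.874 CPM in KO 1 to 3. Krt17 had 2 to 4 counts in controls and 15 to 20 in KO. Krt7, the most abundant of the list, had groups that overlapped (139 to 162 and 112 to 196 CPM, log2 fold change 0.12, adjusted p = 0.769).

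Markers of urothelium, the lining of the renal pelvis outside the Six2 lineage, moved with Krt19 as a sum. Their summed CPM over 9 genes was 74.3, 101 and 87.1 in controls and 450.5, 288 and 120.3 in KO 1 to 3. None of the 9 was at 0 in all samples. Upk3a, a plaque protein of the urothelial surface, rose by 2.49 (SE 0.40, edgeR adjusted p = 0.00483) and Foxa1 by 2.09, and 3 of 9 passed, all higher, including Krt5. With 1 sample left out the number that passed ranged from 1 (without control 1) to 8 (without KO 3), with 5 without control 3. KO 3 was again the lowest KO sample. Upk3a made up 40.1 of the 120.3 CPM in KO 3, against 14.7 to 20.9 CPM of Upk3a in controls. Several of the 9 genes overlapped between groups, so the sum in KO 3, and the ratio that follows, lean on Upk3a. Per 100 summed CPM of these markers, Krt19 amounted to 51.3, 39.0 and 39.2 CPM in controls and to 29.4, 51.2 and 48.0 CPM in KO, so that the groups overlapped on that scale, as they did per 100 summed CPM of macrophage markers (25.7 to 34.3 and 30.5 to 120.0 CPM). Ureteric tree and collecting duct markers did not rise as a sum, though within KO their sum was also lowest in KO 3. Their summed CPM was 1201 to 1529 in controls and 872 to 1368 in KO. Ret, the receptor of ureteric tips, was higher (0.92, SE 0.23, edgeR adjusted p = 0.0329), Aqp3 was lower (-0.83) and 10 of 12 were not called. Neither call held without control 1 or with any 1 KO sample left out. Per 100 summed CPM of the ureteric markers, Krt19 was 2.49 to 2.84 CPM in controls and 6.63 to 12.1 CPM in KO. How much of the Krt19 difference goes with urothelial RNA was not tested.

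**Figure D2:**
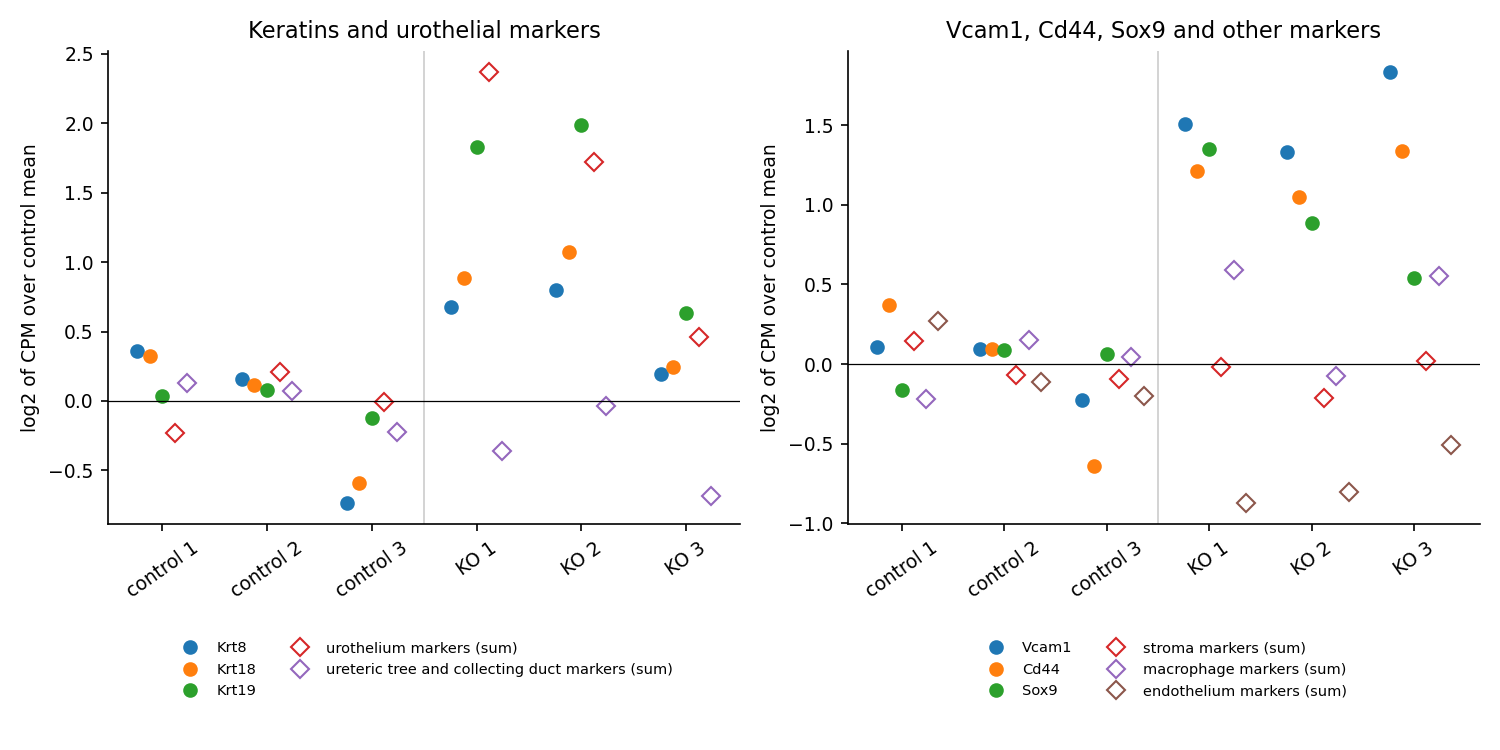
Each sample's CPM relative to the control mean, as log2, for keratins (left) and for Vcam1, Cd44 and Sox9 (right), as filled circles, beside the summed CPM of marker lists of other cell types, as open diamonds. Krt19 and the urothelial sum are both high in KO 1 and KO 2 and lower in KO 3, while Vcam1 and Cd44 are highest in KO 3.

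Vcam1 and Cd44 are adhesion molecules of the cell surface. Vcam1 (ENSMUSG00000027962.13, chromosome 3, 116110020 to 116129688) stood at 34.5, 34.1 and 27.4 CPM in controls and at 90.95, 80.7 and 114 CPM in KO. No KO sample came near the controls, and KO 3, the lowest for Krt19, was the highest here. The means were 32.01 ± 3.998 and 95.2 ± 17.0 CPM (SD, n = 3 each), a log2 fold change of 1.57 (SE 0.16, edgeR adjusted p = 0.000645). By p-value it ranked 234 of the 18132 genes, and it was the only one of the 10 with an adjusted p under 0.01.

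Cd44 (ENSMUSG00000005087.16, chromosome 2, 102811141 to 102901669) stood at 17.5, 14.4 and 8.64 CPM in controls and at 31.2, 27.9 and 34.1 CPM in KO. Control 3 was the lowest sample, and KO 3 the highest. The means were 13.5 ± 4.48 and 31.1 ± 3.12 CPM (SD, n = 3 each), a log2 fold change of 1.20 (SE 0.25, edgeR adjusted p = 0.0145). The call was lost without KO 1 (adjusted p = 0.0585) and without KO 3 (0.061), at log2 fold changes of 1.20 and 1.13.

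Both genes are also carried by cells outside the nephron. Of 9 stromal markers, 3 rose and none fell. They were Foxd1, a stromal progenitor factor (1.63, SE 0.25), Pdgfra (0.79, SE 0.12) and Meis1 (0.54, SE 0.14), but the summed stromal CPM was 4658 to 5496 in controls and 4277 to 5037 in KO. Without control 3, 4 stromal markers were called higher, and with any other sample left out 2. Without control 2 or control 3, 1 was called lower. Of 9 macrophage markers, C1qa, a complement component (1.14, SE 0.23), and Ptprc, the pan-leukocyte antigen (0.79, SE 0.20), rose, with summed CPM of 111 to 144 in controls and 123 to 195 in KO. No macrophage marker was called without control 1 or without KO 1. Endothelial markers were lower, 4 of 7 past the test (Emcn, Tek, Cdh5 and Pecam1, the last named after its value was seen) and none higher, with Cdh5 at -0.75 and summed CPM of 751 to 1044 and 473 to 608. With 1 sample left out the number called lower ranged from 2 (without KO 1 or KO 2) to 7 (without control 3). Vcam1 lay above all controls in every KO sample also per 100 summed CPM of the stromal (0.588 to 0.719 and 1.85 to 2.26 CPM), macrophage (20.6 to 31.1 and 46.7 to 65.7) and endothelial markers (3.31 to 4.27 and 16.3 to 19.2). Cd44 did so for the stromal and endothelial markers and, narrowly, for macrophage markers (6.50 to 15.7 and 16.0 to 22.7 CPM). Per 100 summed CPM of the urothelial markers both genes overlapped between groups (Vcam1 31.5 to 46.5 and 20.2 to 94.7, Cd44 9.93 to 23.5 and 6.93 to 28.4 CPM), with KO 3 the highest sample. Such ratios describe these libraries and do not assign the RNA to a cell type.

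Sox9 (ENSMUSG00000000567.5, chromosome 11, 112782210 to 112787757) stood at 14.04, 16.8 and 16.4 CPM in controls and at 40.1, 29.1 and 22.9 CPM in KO. The controls were close together and KO 3 was the KO sample nearest to them. The means were 15.7 ± 1.48 and 30.7 ± 8.72 CPM (SD, n = 3 each), a log2 fold change of 0.96 (SE 0.21, edgeR adjusted p = 0.0194). It was no longer past the threshold without control 1 (0.88, adjusted p = 0.0773), without KO 1 (0.72, adjusted p = 0.072) or without KO 2 (0.996, adjusted p = 0.0607). Early nephron markers, another site of Sox9, had summed CPM of 880 to 968 in controls and 845 to 906 in KO, with Lhx1 lower (-0.74, SE 0.18) and the other 6 not called. Lhx1 was not called without control 1 or with any 1 KO sample left out. Per 100 summed CPM of these markers Sox9 was 1.45 to 1.90 CPM in controls and 2.53 to 4.74 CPM in KO. Its groups overlapped per 100 summed CPM of the urothelial (16.7 to 18.9 and 8.90 to 19.0 CPM) and of the macrophage markers (11.7 to 12.6 and 12.1 to 23.7 CPM). Any part of these cell types in the Sox9 difference was not tested.

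**Figure D3:**
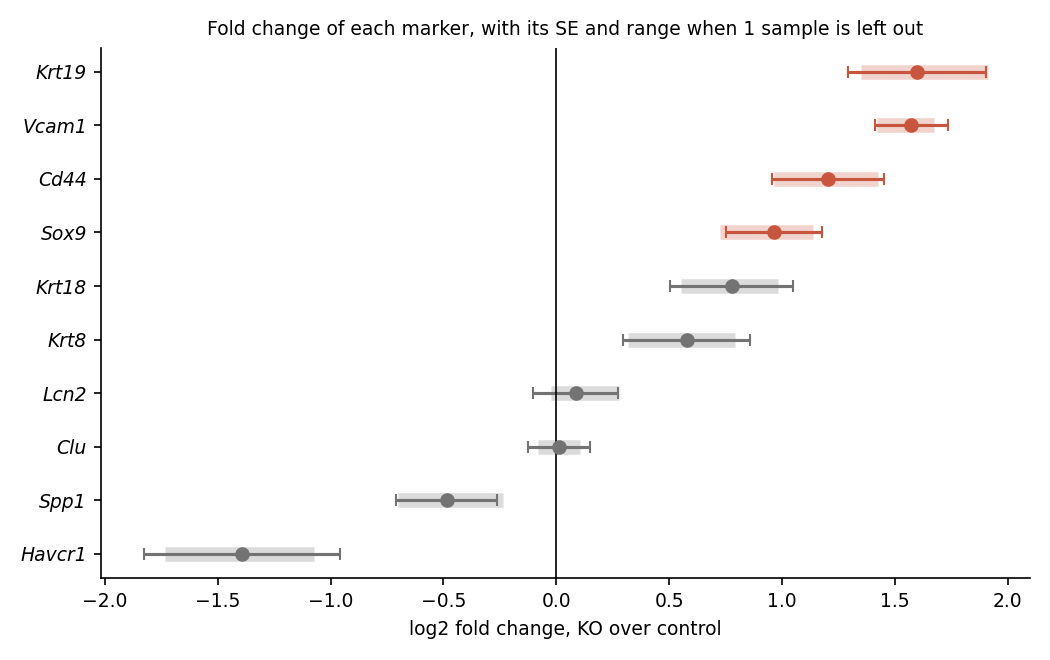
Log2 fold change of KO over control for each gene (points) with its SE (error bars) and the range over the 6 fits that each left out 1 sample (pale bars); red genes passed edgeR's test at an adjusted p under 0.05. Krt19, Vcam1, Cd44 and Sox9 lie between 0.96 and 1.598, and no pale bar of these reaches 0. Nor do the pale bars of Krt8, Krt18, Havcr1 and Spp1, which were not called, while those of Lcn2 and Clu cross 0.

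Havcr1 and Lcn2 are the classical tubule injury markers, and neither rose. Havcr1 (chromosome 11, 46739822 to 46779578) was barely expressed, with 21, 29 and 50 counts in controls and 8, 16 and 9 in KO. In CPM these were 0.640, 0.939 and 1.36 against 0.249, 0.525 and 0.342, so that every KO sample lay below every control, as for 17.8% of all genes tested (16.5% had every KO sample above). With so few counts the estimate was -1.39 on the log2 scale (SE 0.44) and missed the threshold (edgeR adjusted p = 0.0707). Lcn2 (chromosome 2, 32384637 to 32387739) stood at 12.1, 17.8 and 12.7 CPM in controls and at 15.0, 15.9 and 14.4 CPM in KO. All KO samples fell inside the control range, with a log2 fold change of 0.09 (SE 0.19, adjusted p = 0.824). Neutrophils are another source of Lcn2. The summed CPM of 8 neutrophil markers was 6.80 to 35.9 in controls and 13.1 to 24.9 in KO. Control 2 was the highest sample for this sum, as it was for Lcn2. Of the 6 markers that could be tested only Mpo rose (2.81), from at most 0.129 CPM in controls to 0.405 to 0.95 CPM in KO, a gene named after its value was seen. Any part of neutrophils in the Lcn2 values was not tested.

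Spp1 and Clu are abundant secreted proteins of the normal tubule and of injured kidney. Spp1 (chromosome 5, 104435111 to 104441053) stood at 237, 339.5 and 450.2 CPM in controls and at 226, 231 and 276 CPM in KO. Control 1 lay among the KO samples, and control 3, the sample richest in proximal tubule RNA, was the highest. On the log2 scale KO differed from control by -0.49 (SE 0.22), which did not pass (edgeR adjusted p = 0.203). Clu (chromosome 14, 65968483 to 65981548) stood at 208, 161 and 177 CPM in controls and at 174, 205 and 171 CPM in KO, a log2 fold change of 0.01 (SE 0.14, adjusted p = 0.972). All KO samples lay inside the control range. For Havcr1, Lcn2, Spp1 and Clu, with SEs of 0.14 to 0.44, the lack of a call does not show equal levels. Even a difference of several SEs can stay uncalled, as for Havcr1 at -1.39 with SE 0.44.

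Mature tubule genes were far lower beside these markers. All 14 proximal tubule genes fell, with median log2 fold change -3.08, or -2.21 without control 3, and 9 of them passed when any 1 KO sample was left out. The same test called 5 of 6 thick limb and distal genes lower, among them Umod at -4.50, while Calb1 rose (0.56). With 1 sample left out, Calb1 was called higher only in the fit without control 3. All 6 podocyte genes fell as well, with Nphs1 (nephrin) at -3.20, though only 4 passed without KO 1 or without KO 2 and 5 without control 1. Of 7 nephron progenitor genes, Osr1 (0.95) and Eya1 (0.65) rose, though neither was called without control 1 or with any 1 KO sample left out. Cited1 (-2.53) and Itga8 (-0.79) fell. Any part of these falls in the lower means of Havcr1 and Spp1 was not tested.

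Among 34 tested genes of a wider injury and repair list, 6 rose and 2 fell, and 26 did not pass, with a median log2 fold change of 0.04. Without KO 1 only 2 were called higher. The genes that rose included Cxcl1 (2.22), a neutrophil chemokine listed at 0.136 to 0.427 CPM in controls and 1.41 to 1.65 in KO, Krt20, S100a6 (1.17, SE 0.24), a calcium-binding protein of spreading cells, Egr1 (1.13, SE 0.17), an immediate early transcription factor, and Akap12 (0.63). Cp (ceruloplasmin, -1.70, SE 0.28) and Dcdc2a (-0.86, SE 0.14) fell. Vim, the mesenchymal filament gene of dedifferentiated cells, stood at 428 to 549 CPM in controls and 375 to 469 CPM in KO (log2 fold change -0.20, edgeR adjusted p = 0.46).

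Binding partners of the marker proteins mostly did not pass the test. Of 15 tested ligands and receptors, Lrp2 (megalin), which takes up Lcn2 and Clu in the proximal tubule, fell from 601 to 1037 CPM in controls to 153 to 178 CPM in KO (log2 fold change -2.22, SE 0.22, edgeR adjusted p = 0.000572). The other 14 were not called, among them the integrin chain Itga4 that binds Vcam1 (0.08, adjusted p = 0.835), the osteopontin receptor chain Itgav (-0.21, adjusted p = 0.484) and Has2, which makes the Cd44 ligand hyaluronan (0.86, adjusted p = 0.139). Itga4, Itgav and Has2 were chosen after their values were seen. Without control 3, 2 of 17 tested partners were called higher and 4 lower, and without control 2 it was 1 and 1.

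Vcam1, Lcn2 and Cd44 are known targets of NF-kB, and 13 genes of that pathway were tested. Cxcl10 rose (3.04, SE 0.51, edgeR adjusted p = 0.00569), Sod2 fell (-1.18, SE 0.11, adjusted p = 0.000476) and 11 did not pass, with a median log2 fold change of 0.19. Without control 3, 5 of the 13 were called higher and 2 lower. With any other sample left out it was 1 and 1. Cxcl10 is an interferon target as well, and Sod2 a mitochondrial superoxide dismutase.

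Genes most like each called marker were sought by the root mean square distance of the 6 log2(CPM + 0.5) values from the control mean. Over 15579 other genes, the closest to Vcam1 were Trpm2 (0.105, log2 fold change 2.36) and Lin7a (0.108, 1.74). Those closest to Cd44 were Pcdhb3 (0.105, 1.27) and Vstm2b (0.119, 1.21). For Krt19 they were Ppp1r3c (0.126, 1.68) and Sftpd (0.129, 2.59), and for Sox9 Gm37233 (0.113, 1.09) and Lancl3 (0.126, 1.10). The added 0.5 shrinks differences at low CPM, so a short distance does not mean an equal fold change.

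The second question was whether methylation near the starts of these genes differed in KO, in samples other than those of the RNA. Positions needed at least 10 calls in all 6 P0 samples and a place within 1000 bases of the annotated start. Lcn2, Krt18 and Spp1 had 6 such positions each, and Havcr1, Krt8 and Cd44 had none. For 12011 genes with data, every KO mean lay below every control in 20.3%, with a median control level of 1.95%. Lcn2 and Spp1 were far above that level, so 20.3% is not a measure for starts as methylated as theirs. Over whole gene spans with 1000 bases on either side, where the median control level was 50.7%, the share was 65.7%.

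At Spp1, methylation was 66.5%, 63.5% and 65.2% in controls and 36.5%, 24.2% and 40.1% in KO. The groups were far apart, at 65.1% ± 1.497 and 33.6% ± 8.36 (SD, n = 3 each), a difference of -31.4 points (two-sided exact permutation p = 0.1, the smallest possible with 3 against 3). The 6 positions had 186 to 915 calls per sample in all. In the sequence shown above, 4 of the positions are in CpGs: the C and the G of the first capital pair, 230 and 229 bases before the start, and positions 183 and 88 bases before it. That first CpG thus enters the mean through both bases. In KO 3 its C had 45.2% (42 calls) and its G 76.9% (13 calls). The position 183 bases upstream had 66.5% in controls and 27.1% in KO, and the one 88 bases upstream 36.1% and 26.7%. At the 3 positions also read in adults, the means were 56.9% ± 7.50 in controls, 29.5% ± 3.99 in KO and 29.7% ± 6.79 in adults. Spp1 RNA was nevertheless not called in either direction.

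At Lcn2 the 6 positions lie 578 to 891 bases after the start, inside the gene. They had 76.3%, 78.7% and 75.2% in controls and 64.7%, 52.7% and 45.7% in KO, again with no overlap, a difference of -22.4 points (exact permutation p = 0.1). Adults were higher than both, at 87.9% ± 3.71 (SD, n = 3). Lcn2 RNA, as given above, had overlapping groups. At Krt18 the 6 positions lie 198 to 407 bases after the start, downstream of the CpG-rich stretch shown. Methylation was low throughout, at 7.96%, 2.71% and 6.29% in controls and 2.17%, 3.13% and 5.16% in KO (difference -2.17 points, exact permutation p = 0.3), and 10.7% ± 1.07 in adults. These 3 exact tests have Benjamini-Hochberg adjusted values no lower than 0.1 and so cannot pass 0.05.

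**Figure D4:**
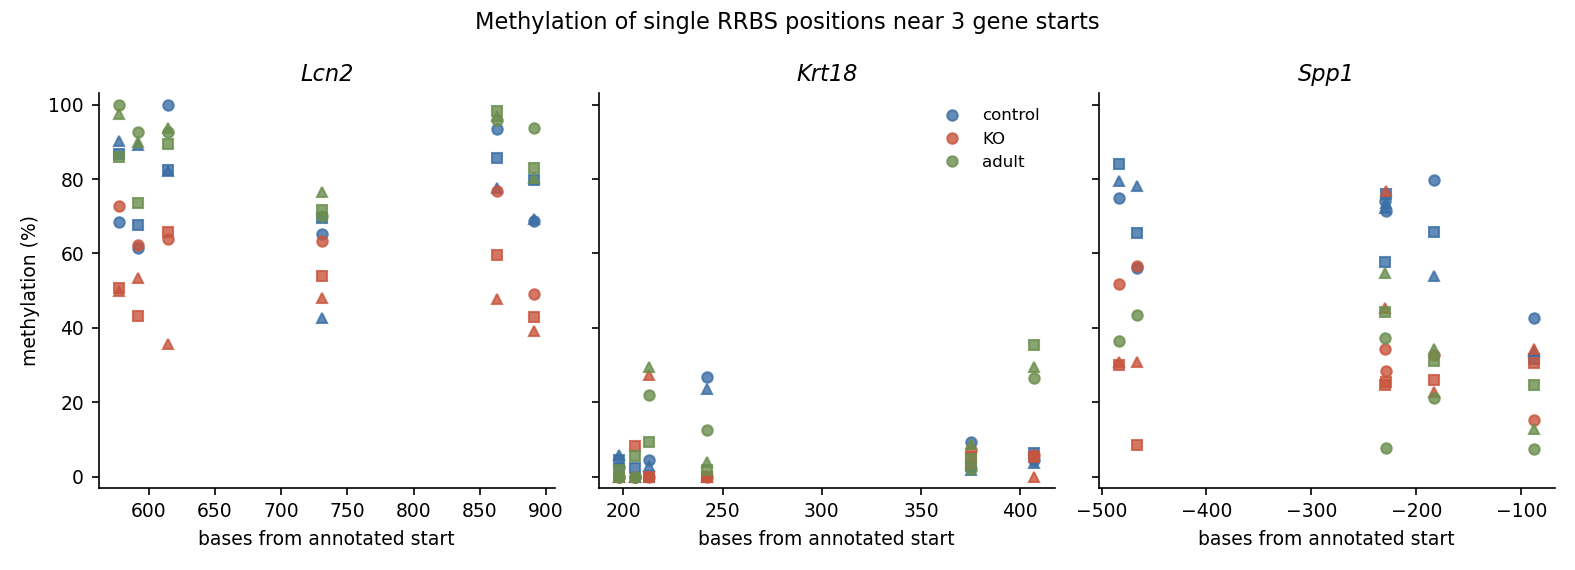
Methylation (%) of each RRBS position with at least 10 calls against its distance in bases from the annotated start (negative is upstream), for Lcn2, Krt18 and Spp1; circles, squares and triangles are replicates 1, 2 and 3 of control (blue), KO (red) and adult (green). Most KO points lie below the controls at Spp1 and Lcn2, with some overlap at single positions, and most Krt18 points lie near 0.

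Krt19, Sox9, Vcam1 and Clu had no promoter entry, so the whole annotated span with 1000 bases on either side was averaged for all 10, a choice made after the positions had been seen. On that scale 65.7% of 26645 genes had every KO mean below every control, with a median difference of -12.5 points. Of the genes that rose, Cd44 had 4 positions at 75.001% ± 4.47 in controls and 43.8% ± 6.73 in KO. Krt19 had 10 positions at 56.9% ± 7.68 and 44.5% ± 4.77, and Sox9 had 36 positions that were nearly free of methylation in both groups (4.51% ± 0.768 and 3.61% ± 0.482) and overlapped. Vcam1 and Havcr1 had no position. Of the genes that did not rise, Krt8 (32.7% and 23.9%), Krt18 (56.9% and 44.0%) and Clu (36.1% and 29.1%) had every KO sample below every control. In all, 7 of the 8 genes with positions did so, a share to be read against 65.7%. With positions weighted by their calls Krt18 and Clu overlapped as well, which left 5 of 8 against 58.2% of all genes. Without KO 3, which let more positions in, the Cd44 difference shrank from -31.2 to -20.5 points and that of Krt19 from -12.4 to -7.33. Unweighted, the exact permutation p was 0.1 for each of the 7 and 0.2 for Sox9.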

How the data were processed

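RNA-seq counts were used as deposited: raw read counts for each gene. The 5 closing lines of unassigned reads (22.9% to 35.8% of reads) stayed out of library sizes and tests. The submitters' processing notes name STAR 2.4.1d, HTSeq 0.6.1, Trim Galore and Bismark and build mm10 (GRCm38). The deposited RRBS files give counts of methylated and unmethylated calls per position, from which percentages were computed. The strand setting of the counting is not given in the sources used here.

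Counts were tested with edgeR 4.0.16 (R 4.3.3; TMM, edgeR's filter on low counts, quasi-likelihood test, Benjamini-Hochberg at 0.05) over 18132 genes. SEs come from the F statistic. Fits were tested on simulated data. Methylation means were compared with exact permutation tests in Python 3.11.15.

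Members and lists were chosen with earlier results of these data known. Named were the 10 markers, Dnmt1, per list up to 3 called genes each way with mean log2 CPM of at least 0 and the most abundant gene, and the 2 genes most like each called marker; some uncalled or repeated ones are not reported. Krt17, Cxcl1, Akap12, Pecam1 and Mpo were named after their values were seen, and 1 gene of a count is not reported here. Alternatives were DESeq2 1.42.0, limma 3.58.1 (voom), other scalings, filters, coverage minimums and windows, a replicate block and each sample left out. Levels between genes per length were not analysed here, for lack of exon lengths.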

Additional observations from a re-analysis of the deposited data

How the results depend on the processing

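Krt19 and Vcam1 passed 0.05 in all 13 other fits run, at log2 fold changes of 1.35 to 1.91 and 1.42 to 1.67. Cd44 passed in 11 and Sox9 in 10 of 13. Krt18 passed in 3 of 13: with DESeq2, with no filter on low counts (adjusted p = 0.0479) and with the replicate block (0.0207). At an adjusted p under 0.01 the number of markers called higher fell from 4 to 1 (Vcam1). With each of 6 samples left out it ranged from 2 to 4, with 2 without KO 1. None was called lower by edgeR, DESeq2 or voom. At an unadjusted p under 0.05, 1 was lower by edgeR (Havcr1, edgeR's unadjusted p = 0.0123) and by voom, and 2 by DESeq2 (Havcr1 and Spp1), as by edgeR with no filter or without control 1. Lcn2 changed sign without control 1, in a range of -0.0239 to 0.277 over left-out samples. Clu changed sign with no filter (-0.0125), without control 2 (-0.0732), without control 3 (-0.00891) and without KO 2, in a range of -0.0828 to 0.107. Krt7 changed sign without KO 1, in a range of -0.0505 to 0.322. Dnmt1 kept its call, at -0.82 to -0.66.

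Over the other lists 22 genes were higher and 36 lower. The number higher was 38 with voom, 6 at an adjusted p under 0.01, and 9 to 37 with 1 sample left out (9 without KO 1, 10 without control 1, 14 without KO 2, 37 without control 3), and the number lower 25 to 50. Over all genes the 1153 higher and 1493 lower became 2442 and 2595 with voom, 528 and 681 at 0.01, 678 higher where every sample had to hold 10 counts, and 647 to 2512 and 701 to 2561 with 1 sample left out. The cause was not tested.

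The replicate block, taken from numbers that do not pair these samples detectably (correlations of deviations -0.272, -0.0895 and -0.14 for same-numbered RNA samples, mean -0.00317 for RRBS), called 5 markers higher and 798 and 1005 genes higher and lower. Paired methylation differences had sign-flip p-values no lower than 0.25, the smallest for 3 pairs.

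The Spp1 and Lcn2 differences kept their direction in every setting run that gave a value. Krt18 moved from -2.17 to -6.04 points with at least 5 calls and to -11.4 within 2000 bases of the start. Over spans, Sox9 reversed to 1.12 points with at least 20 calls, where 10 positions remained, and Clu moved to -15.5 with 2 positions. Without KO 3, Krt8 moved from -8.75 to -11.0 points and Cd44 to -20.5, and without KO 2 Clu went to -4.43. RRBS depth limits the region view: at 10 calls, 2 of 10 genes had no position.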
